A study of Mus musculus with 9 samples.

Results

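The genes described here encode the proteasome. They are the rows of the gene count table whose symbols begin with Psma, Psmb, Psmc, Psmd, Psme, Psmf or Psmg followed by a number, without the immunoproteasome subunits Psmb8, Psmb9 and Psmb10. Of 48 such rows, 46 had a total of at least 30 counts over the 9 libraries and were kept, out of 25361 genes listed, of which 14418 had a count in any library. Psma8, the testis form of an alpha subunit, had no count, and Psmb11, the thymus form of a beta subunit, had 1 count. The 46 genes comprise 7 of the core alpha ring (Psma1 to Psma7), 7 of the core beta ring (Psmb1 to Psmb7), 6 ATPases of the regulatory cap (Psmc1 to Psmc6), 11 other cap subunits (Psmd1 to Psmd4, Psmd6 to Psmd8, Psmd11 to Psmd14), 3 cap assembly chaperones (Psmd5, Psmd9, Psmd10), 6 other activators and inhibitors (Psme1, Psme2, Psme2b, Psme3, Psme4, Psmf1) and 4 core assembly chaperones (Psmg1 to Psmg4). The remaining 2, Psmc3ip and Psme3ip1, matched by symbol and encode proteins named after a subunit that they bind, not subunits.

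Cells were taken with CD8a magnetic beads from subcutaneous tumours of MC38, a mouse colon carcinoma line, 21 days after injection into wild-type male C57BL/6N mice. There were 3 groups of 3 libraries: aged restricted (20 months old, fed 70% of the ad libitum intake), aged ad libitum (20 months old) and young ad libitum (5 months old). The design text calls the replicates biological and independent, and no young restricted group was analysed here. A 3′ method was used, in which the reads come from the end of each transcript, so counts do not scale with transcript length, and levels are compared between groups for 1 gene at a time and not between genes.

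Library totals ran from 810662 to 1258575 counts, and mitochondrially encoded genes took from 23.5% of the total in aged restricted replicate 2 to 45.7% in aged restricted replicate 1. The cells are labelled as tumour-infiltrating CD8+ T cells. The 12 T cell markers, among them the CD3 and CD8 chains, summed to 334 ± 88.7 CPM (counts scaled to a library total of 1e+06) in aged restricted, 233 ± 148 CPM in aged ad libitum and 130.03 ± 83.5 CPM in young ad libitum libraries (SD, n = 3 each), and in young ad libitum replicate 2 Cd247 and Cd3g were at 0. The 12 monocyte and macrophage markers, all detected in every library, summed to 8609 ± 819 CPM in aged restricted, 3813 ± 1881 CPM in aged ad libitum and 3897 ± 140 CPM in young ad libitum libraries, above the T cell markers in every group. The levels below are therefore those of all the recovered cells, and fewer cells of a type and less RNA per cell cannot be told apart.

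The proteasome degrades proteins that carry ubiquitin chains. Its core is a stack of rings: outer rings of alpha subunits gate the entry, and inner rings of beta subunits hold the cutting sites, which in most cells are those of Psmb5, Psmb6 and Psmb7 and, in immune cells or after interferon, are replaced by Psmb8, Psmb9 and Psmb10. A regulatory cap, made of a ring of ATPases and a lid of other subunits, binds the chain, removes it and feeds the unfolded protein into the core, whereas the activators PA28 (Psme1 and Psme2), PA28 gamma (Psme3) and PA200 (Psme4) open the core without ATP. T cells that divide after meeting antigen and macrophages that present it both rely on this machinery.

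Proteasome genes were measured in every group, and 1 of the 46 passed the threshold in any comparison. All 46 passed edgeR's filter on low counts and stood among the 9009 genes tested. By edgeR's quasi-likelihood test with Benjamini-Hochberg adjustment over the 9009 genes, 0 of the 46 passed an adjusted p of 0.05 for aged ad libitum against young ad libitum mice, where 0.289% of all tested genes passed. For aged restricted against aged ad libitum mice 0 passed, where 0.944% of all tested genes did. For aged restricted against young ad libitum mice 1 passed, the cap subunit gene Psmd3, where 1.94% of all tested genes did. DESeq2 also called 0, 0 and 1 of the 46 in the same order of comparisons. At an unadjusted p under 0.05 in edgeR there were 5 of 46 genes for age (10.4% of all tested genes), 3 of 46 for restriction (11.7%) and 4 of 46 for aged restricted against young ad libitum mice (11.6%), shares no higher than, or close to, those of all genes.

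The directions of the fitted changes were less even for age than for restriction. In aged ad libitum against young ad libitum mice, 35 of the 46 genes had a lower fitted level, where 50.1% of all tested genes did, and the median log2 fold change was -0.24 beside 0.00 for all tested genes. In 7 of the 46 genes (8.58% of all tested genes) every aged ad libitum library lay below every young one, and in 2 (7.4% of all tested genes) every one lay above. In aged restricted against aged ad libitum mice, 19 of the 46 had a lower fitted level (50.0% of all tested genes), with a median of 0.05 beside 0.00. There, all 3 restricted libraries lay below all 3 others for 3 genes (8.47% of all tested genes) and above them for 6 (9.26%). In aged restricted against young ad libitum mice, 26 of 46 had a lower fitted level (48.9% of all tested genes), with a median of -0.08 beside 0.02, and the groups stood wholly apart downward for 7 genes (9.26%) and upward for 3 (9.82%). The comparisons share libraries pairwise, so their counts are not independent of each other.

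**Figure D1:**
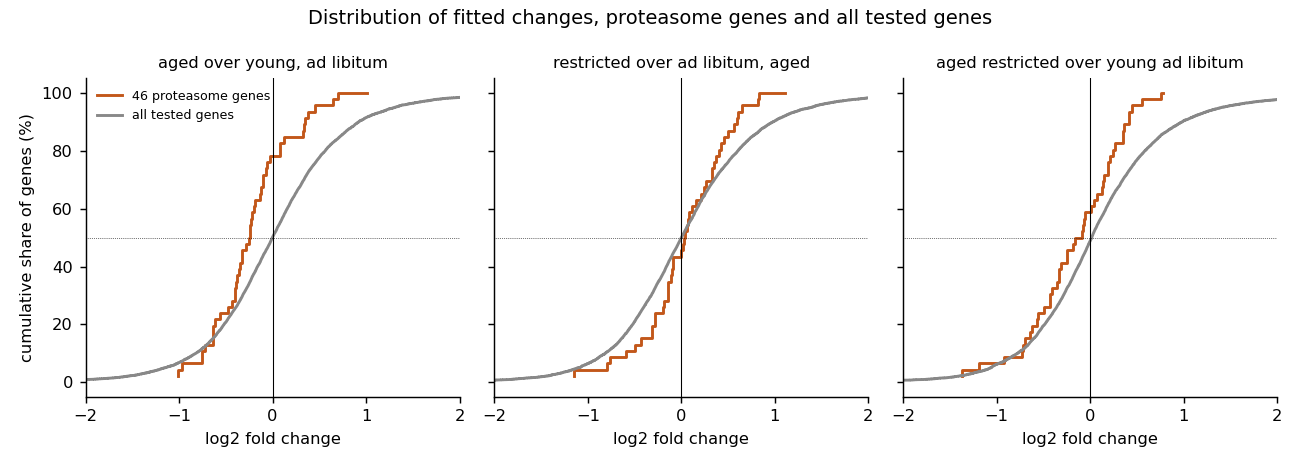
Cumulative share of genes (%) against the fitted log2 fold change, for the 46 proteasome genes (orange) and for all 9009 tested genes (grey), in the 3 comparisons; the axis is drawn between -2 and 2. In aged against young ad libitum mice the proteasome curve crosses 50% to the left of 0, at a median of -0.24, and in restricted against ad libitum aged mice it crosses close to 0.

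**Figure D2:**
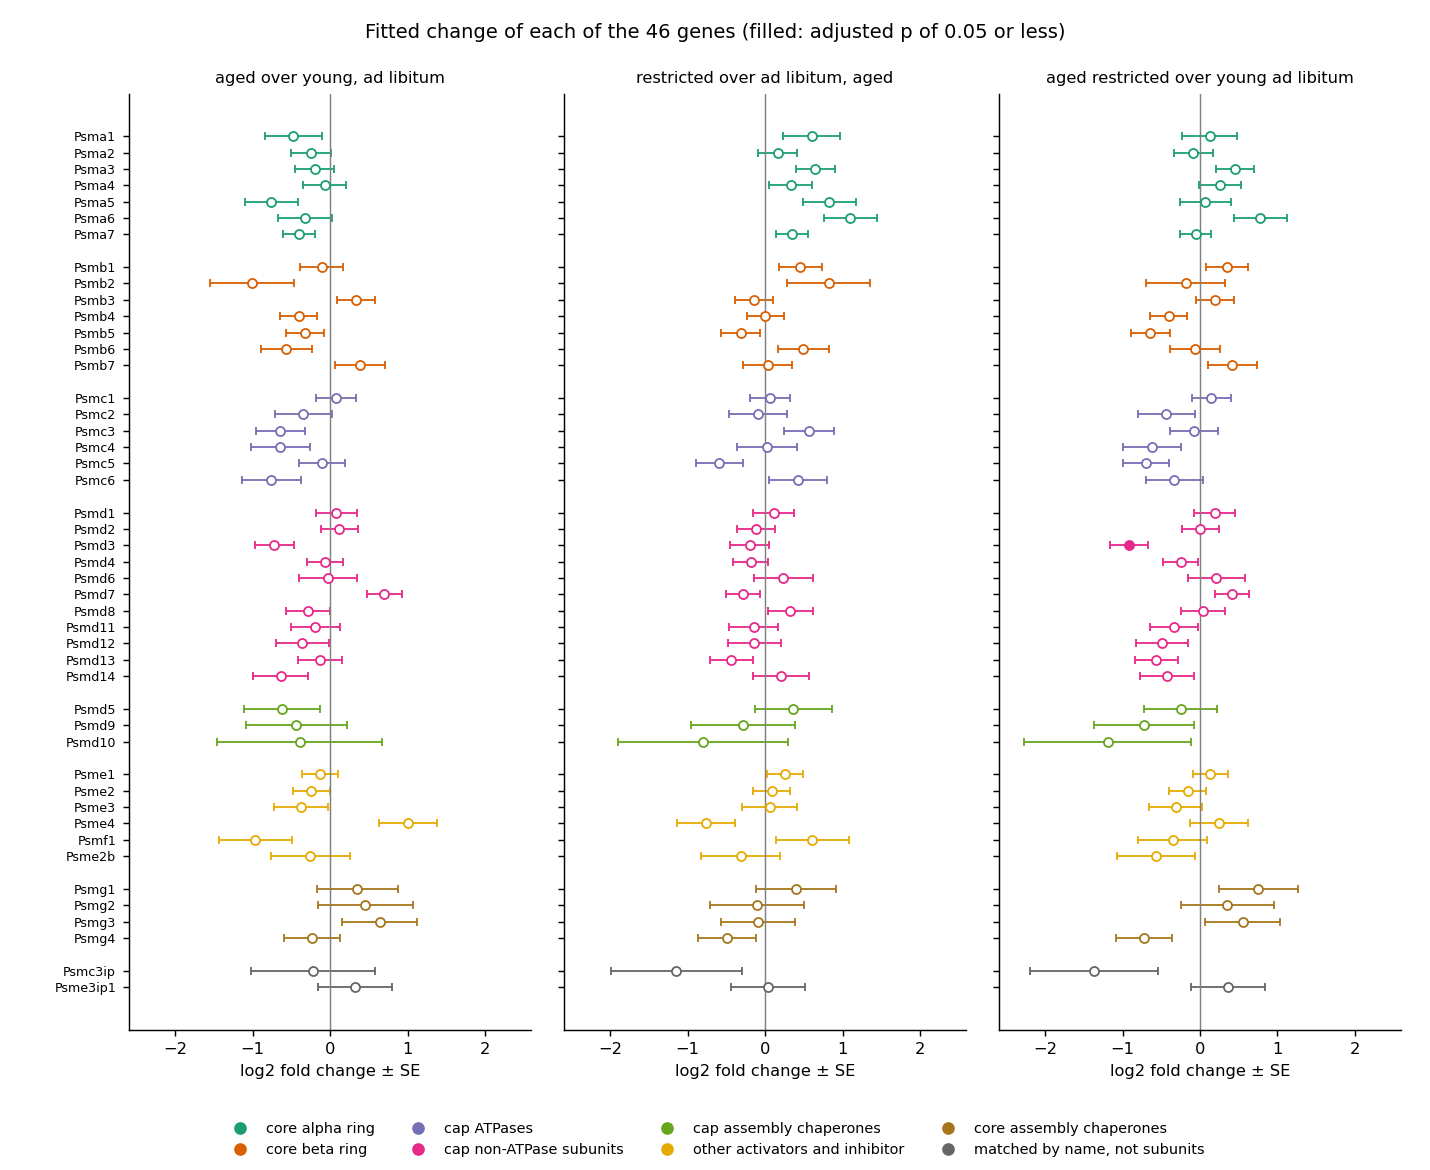
Fitted log2 fold change ± SE of each of the 46 genes in the 3 comparisons, coloured by class; a filled point has an adjusted p of 0.05 or less. Psmd3 in the right panel is the single filled point, and in the middle panel the 7 alpha ring genes all lie to the right of 0.

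Summed over the 46 genes, the level depended on the scale. As CPM of the library total, the sums were 3682, 5917 and 4631 in aged restricted, 4781, 4058 and 4441 in aged ad libitum, and 5054, 5149 and 4387 in young ad libitum libraries. The groups overlapped on this scale, and the lowest and the highest library were both aged restricted, the ones with the highest and the lowest mitochondrial share. Without the mitochondrially encoded genes in the total, the sums were 6776, 7738 and 7435 CPM in aged restricted, 6923, 7047 and 7034 CPM in aged ad libitum, and 7618, 7773 and 7222 CPM in young ad libitum libraries. On that scale every aged ad libitum library lay below every young one, while the aged restricted libraries spanned both. In CPM scaled by edgeR's TMM factors, the sums were 4451, 4886 and 4718 in aged restricted, 4419, 4453 and 4426 in aged ad libitum, and 5100, 5112 and 4705 in young ad libitum libraries. There too every aged ad libitum library lay below every young one, and the aged restricted libraries overlapped both groups, the aged ad libitum one only just. The proliferation markers, 12 genes all detected in each library, summed to 1140 ± 144 CPM of the library total in aged restricted, 1242 ± 9.67 CPM in aged ad libitum and 1437 ± 191 CPM in young ad libitum libraries (SD, n = 3 each). These marker sums are on the first scale, on which the proteasome sums of the groups overlapped, and their mean was lowest in aged restricted libraries. The part of proliferation in the lower sum of the proteasome genes in aged ad libitum mice was not tested.

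**Figure D3:**
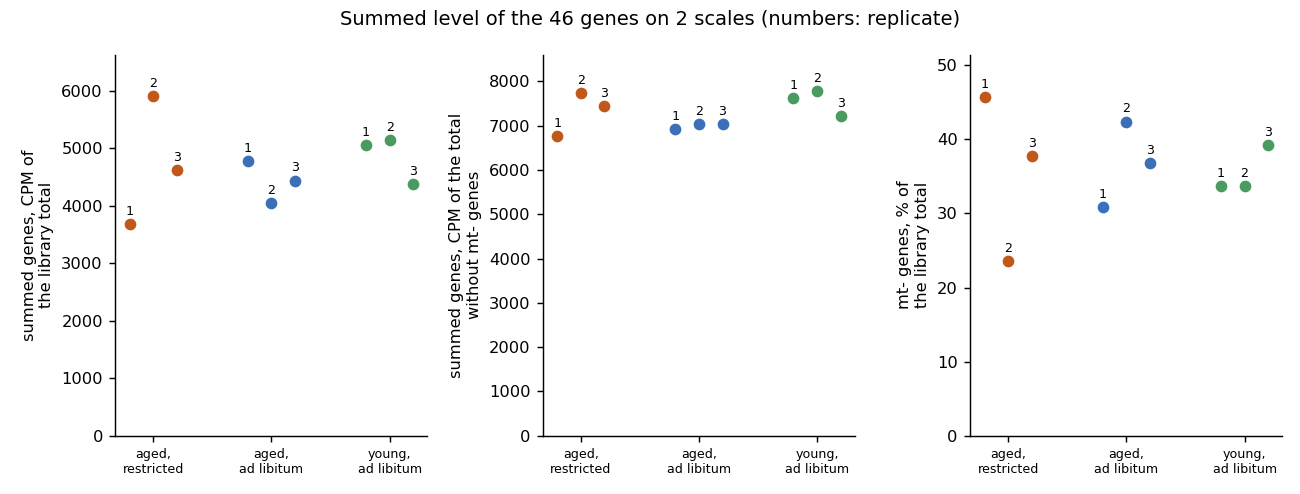
Summed level of the 46 genes in each library as CPM of the library total (left), as CPM of the total without mitochondrially encoded genes (middle), and the share of the total in those genes in % (right); the number above a point is the replicate. Leaving the mitochondrial genes out narrows the aged restricted libraries from a span of 3682 to 5917 CPM to one of 6776 to 7738 CPM.

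The alpha ring had the most uniform pattern of the classes. All 7 of its genes had a lower fitted level in aged ad libitum than in young ad libitum mice (log2 fold changes from -0.76 to -0.07, median -0.32), and all 7 had a higher fitted level in aged restricted than in aged ad libitum mice (from 0.16 to 1.10, median 0.60). None of these changes passed the threshold in edgeR's quasi-likelihood test (Benjamini-Hochberg adjusted p of at least 0.429 for age and at least 0.1445 for restriction). The same aged ad libitum libraries enter both comparisons, so a low value there lowers the first difference and raises the second. Under each of the other 18 settings, which include leaving out each library, the restriction median lay between 0.46 and 0.65 and 6 or 7 of the 7 genes were higher; for age it lay between -0.41 and -0.21 with 6 or 7 lower.

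Psma6, which encodes subunit alpha 1 of the ring, had the largest of these differences. Its level, in CPM scaled by edgeR's TMM factors, was 90.8, 138 and 79.2 in aged restricted, 39.7, 38.9 and 65.2 in aged ad libitum, and 46.3, 54.0 and 79.6 in young ad libitum libraries. Every aged restricted library lay above every aged ad libitum one, and the young libraries overlapped both groups, if only just with the restricted one. The log2 fold change of restricted over ad libitum aged mice was 1.10 ± 0.35 (SE), with an adjusted p of 0.1445 in edgeR's quasi-likelihood test.

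Psma5, the subunit alpha 5, had 59.8, 91.2 and 72.0 TMM-scaled CPM in aged restricted, 50.9, 41.6 and 33.2 in aged ad libitum, and 67.0, 85.4 and 61.0 in young ad libitum libraries. The aged ad libitum libraries were the lowest 3 of the 9, and the other groups overlapped. Its log2 fold change was 0.83 ± 0.34 for restriction and -0.76 ± 0.34 for age (SE; edgeR quasi-likelihood adjusted p = 0.309 and 0.429). Psma3, the subunit alpha 7, had 211, 236 and 228 TMM-scaled CPM in aged restricted, 117, 133 and 182 in aged ad libitum, and 194, 183 and 118 in young ad libitum libraries. The aged restricted libraries were the highest 3, at 0.65 ± 0.25 over aged ad libitum mice on the log2 scale (SE; adjusted p = 0.287 in edgeR). Psma1 and Psma7 also had all 3 restricted above all 3 ad libitum aged libraries, at means of 58.1 ± 13.3 against 38.2 ± 4.08 and of 333 ± 24.1 against 263 ± 35.2 TMM-scaled CPM (SD, n = 3), whereas those of Psma2 and Psma4 overlapped.

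The share of all 46 genes' counts that fell to the alpha ring does not depend on library scaling. It was 24.3%, 24.6% and 22.9% in aged restricted, 19.1%, 16.4% and 19.6% in aged ad libitum, and 22.1%, 19.6% and 19.2% in young ad libitum libraries. The aged restricted libraries were the highest 3, and the ad libitum groups overlapped. A share also rises where other classes fall. The cap subunits other than ATPases took 28.2% to 29.9% in aged restricted, 31.1% to 35.5% in aged ad libitum and 30.0% to 32.6% in young ad libitum libraries. In TMM-scaled CPM, the alpha ring sums were 1081, 1203 and 1082 in aged restricted and 1128, 1002 and 904 in young ad libitum libraries, which overlapped. In aged ad libitum libraries they were lower, at 842, 728 and 869. The beta ring took 19.1% ± 1.46, 19.5% ± 0.151 and 19.5% ± 1.25 (SD, n = 3) in aged restricted, aged ad libitum and young ad libitum libraries, which is within the spread. The ratio of alpha to beta ring counts was 1.26 ± 0.0931, 0.942 ± 0.089 and 1.05 ± 0.118 in the same order, and that of all core to all cap counts 1.11 ± 0.0823, 0.878 ± 0.0605 and 0.953 ± 0.0786. For both ratios the aged restricted libraries, at 1.19 or more and 1.04 or more, stood above all 6 others. Both leave out Psmb8, Psmb9 and Psmb10, which replace subunits of the beta ring. Together they had 987, 946 and 1091 counts in aged restricted and 504, 507 and 541 in aged ad libitum libraries. In young ad libitum libraries they had 1064, 1005 and 967. With them counted in, the alpha to beta ratios of the groups overlap, while the core to cap ratios of the aged restricted libraries remain the highest. The macrophage markers were also highest in the 3 aged restricted libraries, from 7674 to 9197 CPM against 2099 to 5826 CPM in aged ad libitum libraries, with all 12 detected in each. Other lists moved the same way. The 8 keratinocyte markers summed to 189.6 to 698 CPM in aged restricted and 51.7 to 97.5 CPM in aged ad libitum libraries, with 8 and with 6 or 7 of the 8 detected. The 8 skeletal muscle markers summed to 42.1 to 177 CPM in aged restricted and 5.50 to 21.0 CPM in aged ad libitum libraries, with 7 or 8 and with 2 or 3 detected. The 5 red blood cell markers summed to 166 to 389 CPM in aged restricted and 45.6 to 95.8 CPM in aged ad libitum libraries, and the 5 neutrophil markers to 52.4 to 93.4 CPM and 8.55 to 37.4 CPM in the same groups. The 8 endothelial markers went the other way, at 81.8 to 218 CPM in aged restricted and 205 to 575 CPM in aged ad libitum libraries, with a narrow overlap. The part of these cell types in the alpha ring difference was not tested.

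**Figure D4:**
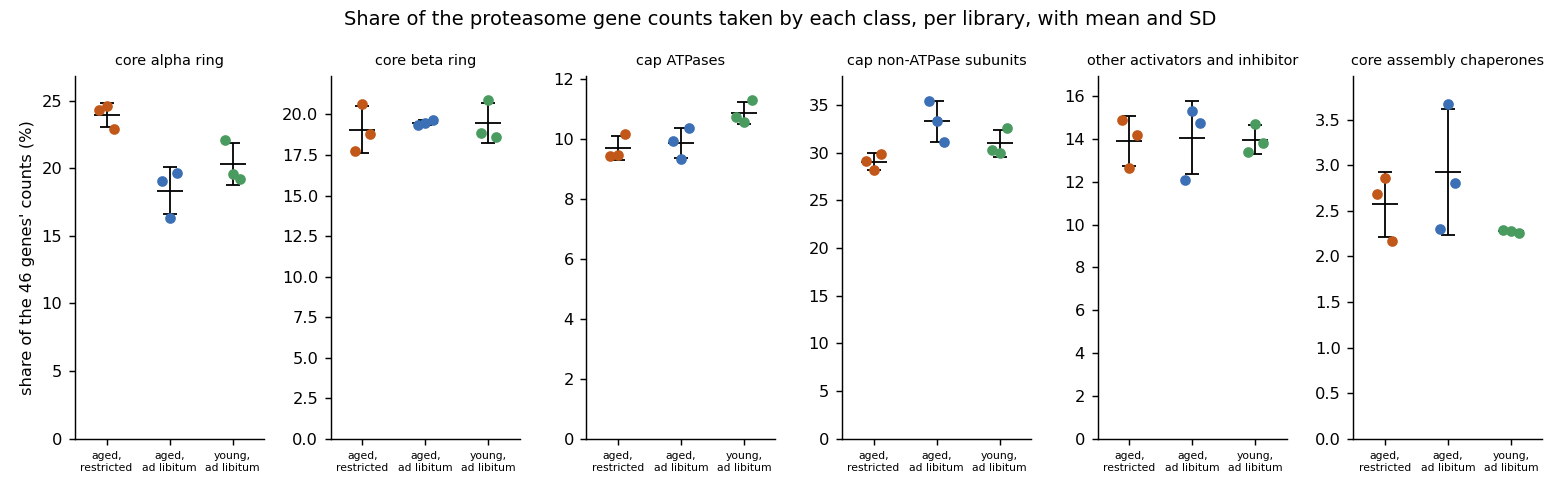
Share of the 46 genes' counts (%) taken by 6 classes in each library (points), with the mean and SD of 3 libraries; each panel has its own axis from 0. The alpha ring share lies between 22.9% and 24.6% in aged restricted libraries, above all 6 ad libitum libraries.

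In the beta ring, the subunits with the constitutive cutting sites did not move together. Psmb5, the chymotrypsin-like site, had 176, 111 and 116 TMM-scaled CPM in aged restricted, 135, 169 and 197 in aged ad libitum, and 222, 197 and 208 in young ad libitum libraries. The young libraries were the highest 3, with aged ad libitum replicate 3 just below the lowest of them. Its log2 fold change was -0.64 ± 0.25 for aged restricted against young ad libitum mice and -0.32 ± 0.25 for age (SE; edgeR quasi-likelihood adjusted p = 0.261 and 0.708). Psmb6, the caspase-like site, had 79.7, 93.8 and 88.0 TMM-scaled CPM in aged restricted, 41.7, 71.1 and 73.8 in aged ad libitum, and 55.4, 118 and 101 in young ad libitum libraries, so that the aged groups stood apart and the young group spanned both. Psmb7, the trypsin-like site, had 66.4, 77.4 and 117 TMM-scaled CPM in aged restricted, 74.3, 105 and 77.5 in aged ad libitum, and 81.0, 66.0 and 48.7 in young ad libitum libraries, which overlapped throughout. Its counts are uncertain, since 255 of its last 400 bases are shared with Nek6 on the opposite strand, which had 294 counts over the 9 libraries against 759 for Psmb7. Psmb2, a subunit without a cutting site, had 16.6, 51.8 and 28.5 TMM-scaled CPM in aged restricted, 8.14, 12.1 and 35.7 in aged ad libitum, and 38.0, 42.7 and 31.0 in young ad libitum libraries. Aged ad libitum replicate 3 lay within the young range and its other replicates far below, and the log2 fold change for age was -1.01 ± 0.54 (SE; adjusted p = 0.545 in edgeR), with -0.65 without aged ad libitum replicate 1 and -1.90 without replicate 3. Over the class, 5 of 7 genes had a lower fitted level with age (median -0.32) and 5 of 7 a higher one with restriction (median 0.03, and from -0.01 without aged restricted replicate 3 to 0.21 without aged ad libitum replicate 2).

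The immunoproteasome subunits, which are outside the 46 genes, were set beside the sites they replace. Psmb9, which takes the place of Psmb6, had 242, 160.1 and 253 TMM-scaled CPM in aged restricted, 66.1, 122 and 143 in aged ad libitum, and 211, 228 and 209 in young ad libitum libraries. The aged ad libitum libraries were the lowest 3. The difference did not pass the threshold in either comparison they enter (log2 fold change 0.99 ± 0.27 for restriction and -0.97 ± 0.27 for age, SE; edgeR quasi-likelihood adjusted p = 0.0699 and 0.117). For restriction, DESeq2 called it (adjusted p = 0.0349). So did edgeR with no filter on low counts (0.0153) and without aged restricted replicate 2 (0.0129), but none of the other settings did. The summed counts of Psmb8, Psmb9 and Psmb10 over those of Psmb5, Psmb6 and Psmb7 were 2.87 ± 0.609 in aged restricted, 1.98 ± 0.0644 in aged ad libitum and 2.32 ± 0.179 in young ad libitum libraries (SD, n = 3). Every aged ad libitum library had a lower pooled ratio than every library of the other groups, and aged restricted replicate 2, at 2.20, was the lowest of its group. The single pairs differed in pattern. Psmb8 over Psmb5 was 4.10 ± 1.10 in aged restricted, 2.33 ± 0.29 in aged ad libitum and 2.29 ± 0.151 in young ad libitum libraries, so that the aged restricted libraries stood above both other groups. Psmb9 over Psmb6 was 2.54 ± 0.726 in aged restricted, 1.75 ± 0.176 in aged ad libitum and 2.6 ± 1.05 in young ad libitum libraries, and the groups overlapped. Psmb10 over Psmb7 was 1.54 ± 0.561 in aged restricted, 1.46 ± 0.413 in aged ad libitum and 2.42 ± 0.323 in young ad libitum libraries, and the young libraries were the highest 3.

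Among the ATPases of the cap, 5 of 6 had a lower fitted level with age (median log2 fold change -0.49) and 5 of 6 in aged restricted than in young ad libitum mice (median -0.38), and none passed the threshold. Psmc5 had 59.8, 45.9 and 86.3 TMM-scaled CPM in aged restricted, 98.7, 96.5 and 93.4 in aged ad libitum, and 109.95, 117 and 83.2 in young ad libitum libraries. All aged restricted libraries lay below all aged ad libitum ones, and replicate 3 overlapped the young group. The log2 fold change was -0.59 ± 0.30 against aged ad libitum and -0.70 ± 0.30 against young ad libitum mice (SE; edgeR quasi-likelihood adjusted p = 0.454 and 0.344). Psmc3 had 104, 93.8 and 84.5 TMM-scaled CPM in aged restricted, 40.7, 85.8 and 65.2 in aged ad libitum, and 77.7, 95.03 and 125 in young ad libitum libraries. Its groups overlapped in each comparison. It overlaps Slc39a13 on the opposite strand, so its counts are uncertain where the use of strand is not stated.

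Psmd3 was the single gene of the 46 that fell. It encodes a scaffold subunit of the lid of the cap. It had 122, 94.5 and 129 TMM-scaled CPM in aged restricted, 125, 156 and 116 in aged ad libitum, and 221, 188 and 242 in young ad libitum libraries. All 6 aged libraries lay below all 3 young ones, and the aged groups overlapped. The log2 fold change of aged restricted over young ad libitum mice was -0.92 ± 0.25 (SE; edgeR quasi-likelihood adjusted p = 0.0482), close to the threshold. In aged ad libitum against young ad libitum mice it was -0.72 ± 0.25 (adjusted p = 0.248 in edgeR). Whether the aged groups differ from each other in this was asked directly by the contrast between them, which gave -0.20 ± 0.25 (adjusted p = 0.833). The call was lost in 10 of the other 18 settings, among them DESeq2's size factors within edgeR (adjusted p = 0.0549), plain library totals (0.108), a fit without robust estimation (0.0571) and 7 of the 9 fits that left out a library. Those 7 lacked young ad libitum replicate 1 (adjusted p = 0.143), 2 (0.0846) or 3 (0.205), aged restricted replicate 1 (0.13), 2 (0.105) or 3 (0.103), or aged ad libitum replicate 3 (0.0611). The log2 fold change stayed between -1.02 and -0.80 over the 18, with adjusted p from 0.0196 to 0.205. Markers of some other cell types split the libraries the same way, while the T cell, macrophage, fibroblast, endothelial and proliferation markers overlapped between aged and young libraries. The keratinocyte markers summed to 51.7 to 698 CPM in the 6 aged and 2.46 to 6.49 CPM in the 3 young libraries, where Krt5 and Krt14 were at 0. The muscle markers summed to 5.50 to 177 CPM in the aged and 0 to 3.24 CPM in the young libraries, the red blood cell markers to 45.6 to 389 CPM and 0 to 7.37 CPM, and the neutrophil markers to 8.55 to 93.4 CPM and 3.30 to 6.55 CPM. Their part in the Psmd3 difference was not tested.

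Psmd7, another subunit of the lid, had 256, 234 and 249 TMM-scaled CPM in aged restricted, 269, 377 and 256 in aged ad libitum, and 212, 168 and 173 in young ad libitum libraries. All 6 aged libraries lay above all 3 young ones, the reverse of Psmd3. Its log2 fold change for age was 0.70 ± 0.22 (SE; edgeR quasi-likelihood adjusted p = 0.1999). The ratio of Psmd3 to Psmd7 counts, a pair chosen after the values were seen and therefore given without a test, was 0.466 ± 0.0573 in aged restricted, 0.444 ± 0.0275 in aged ad libitum and 1.19 ± 0.188 in young ad libitum libraries (SD, n = 3).

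The subunits of the cap that handle ubiquitin varied less between groups than within them. Psmd14, the deubiquitinase that cuts the chain from the substrate, had 56.5, 81.4 and 64.9 TMM-scaled CPM in aged restricted, 87.5, 33.5 and 54.1 in aged ad libitum, and 121, 61.2 and 92.9 in young ad libitum libraries. The groups overlapped, with a log2 fold change for age of -0.64 ± 0.36 (SE; adjusted p = 0.565 in edgeR). It was -0.37 without aged ad libitum replicate 2, -0.40 without young ad libitum replicate 1 and -1.08 without aged ad libitum replicate 1. Psmd4, a ubiquitin receptor, had 182, 157 and 224 TMM-scaled CPM in aged restricted, 177, 219.9 and 243 in aged ad libitum, and 209, 243 and 216 in young ad libitum libraries. Psmd2, a scaffold of the base that also binds ubiquitin-like domains, averaged 175 ± 30.3 TMM-scaled CPM in aged restricted, 190.1 ± 23.8 in aged ad libitum and 175 ± 38.4 in young ad libitum libraries (SD, n = 3). Across all 11 subunits of the class, 8 had a lower fitted level with age (median -0.13) and 7 with restriction (median -0.14). With a library left out, the age median ran from -0.35 (without aged ad libitum replicate 1) to -0.09 (without aged ad libitum replicate 2), and the restriction median from -0.14 to -0.02 (without aged ad libitum replicate 1).

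**Figure D5:**
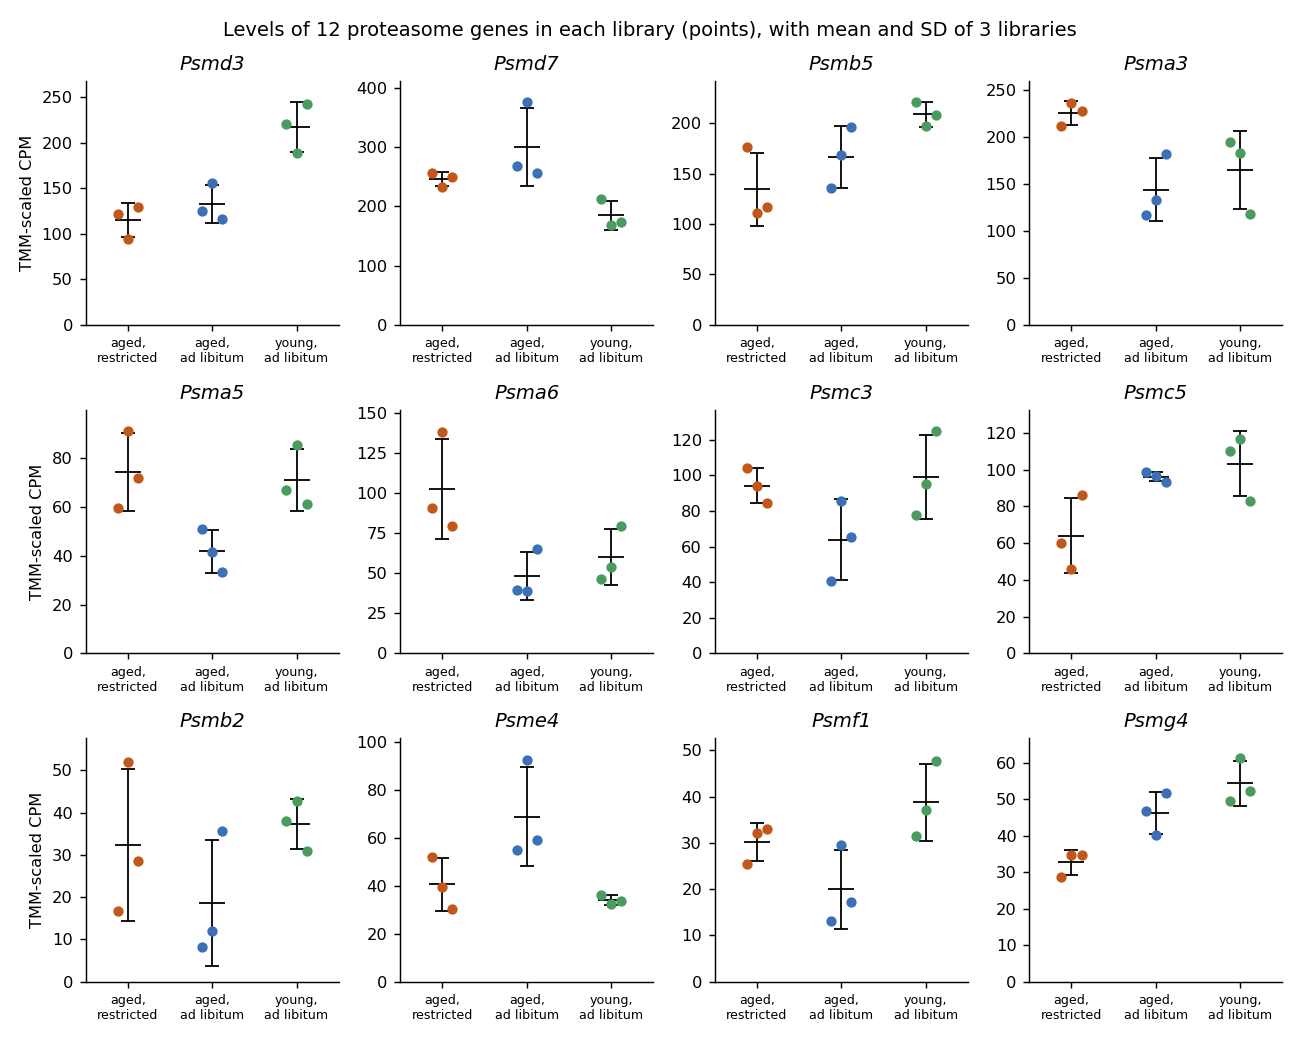
Level of 12 of the genes in each library in TMM-scaled CPM (points), with the mean and SD of 3 libraries; each panel has its own axis from 0. Psmd3 lies at 188 to 242 in the young libraries, above all 6 aged ones, the young libraries lie below all 6 aged ones for Psmd7, and for Psma5 the aged ad libitum libraries are the lowest 3.

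Among the activators and the inhibitor, PA200 and PI31 differed most between the groups. Psme4, or PA200, had 52.0, 39.4 and 30.2 TMM-scaled CPM in aged restricted, 54.9, 92.5 and 59.0 in aged ad libitum, and 36.4, 32.2 and 33.6 in young ad libitum libraries. The aged ad libitum libraries were the highest 3, with replicate 2 well above the others. Its log2 fold change was -0.76 ± 0.37 for restriction and 1.01 ± 0.38 for age (SE; edgeR quasi-likelihood adjusted p = 0.427 and 0.294). Psmf1, the inhibitor PI31, had 25.5, 32.2 and 32.9 TMM-scaled CPM in aged restricted, 13.2, 29.5 and 17.2 in aged ad libitum, and 31.4, 37.0 and 47.8 in young ad libitum libraries. All aged ad libitum libraries lay below all young ones, at -0.96 ± 0.47 on the log2 scale (SE; adjusted p = 0.478 in edgeR).

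The PA28 genes were close between groups. Psme1 had 280.1, 184 and 198 TMM-scaled CPM in aged restricted, 193, 173 and 186 in aged ad libitum, and 212, 218 and 173 in young ad libitum libraries. Psme3 had 68.6, 39.4 and 66.7 TMM-scaled CPM in aged restricted, 50.9, 41.6 and 73.8 in aged ad libitum, and 57.9, 72.5 and 85.8 in young ad libitum libraries. The groups overlapped for both. Psme2 and Psme2b share 99% of their last 400 bases, so that reads cannot be assigned to one of them with confidence, and their sum is the safer value: 300 ± 55.6 TMM-scaled CPM in aged restricted, 295 ± 64.4 in aged ad libitum and 350 ± 41.4 in young ad libitum libraries (SD, n = 3).

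The core assembly chaperones had from 8 to 76 counts a gene and library. Psmg4, a core assembly chaperone, had 28.8, 34.8 and 34.7 TMM-scaled CPM in aged restricted, 46.8, 40.2 and 51.6 in aged ad libitum, and 49.6, 61.2 and 52.2 in young ad libitum libraries. The aged restricted libraries were the lowest 3 of the 9, at a log2 fold change of -0.72 ± 0.36 against young ad libitum and -0.49 ± 0.37 against aged ad libitum mice (SE; edgeR quasi-likelihood adjusted p = 0.447 and 0.672). Psmg1, another of them, had 29.9, 40.0 and 36.5 TMM-scaled CPM in aged restricted, 9.16, 46.9 and 25.8 in aged ad libitum, and 14.9, 20.1 and 28.3 in young ad libitum libraries, so that all restricted libraries lay above all young ones and the aged ad libitum group spanned both. Of the 4 genes, 3 had a higher fitted level with age (median 0.40). Without aged ad libitum replicate 2 there were 2 higher and 2 lower (median -0.07).

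Of the cap assembly chaperones, all 3 had a lower fitted level with age (median -0.44, and from -0.79 without aged ad libitum replicate 2 to -0.23 without young ad libitum replicate 1). Psmd5 had 22.1, 30.2 and 27.6 TMM-scaled CPM in aged restricted, 10.2, 26.8 and 25.8 in aged ad libitum, and 34.7, 29.8 and 31.0 in young ad libitum libraries. Aged ad libitum replicate 1 was far below the rest. Psmd9 had 14.4, 9.19 and 14.2 TMM-scaled CPM in aged restricted, 4.07, 21.5 and 20.9 in aged ad libitum, and 26.5, 14.5 and 21.2 in young ad libitum libraries, from 4 to 32 counts a library. Psmd10 had from 0 to 20 counts a library, and its log2 fold changes had SEs of 1.06 to 1.10. The genes that matched by symbol alone had from 1 to 41 counts a library. Psmc3ip, a partner of recombination proteins in meiosis, had 5.54, 5.25 and 8.89 TMM-scaled CPM in aged restricted, 12.2, 30.8 and 1.23 in aged ad libitum, and 23.97, 9.66 and 17.7 in young ad libitum libraries. It shares 385 of its last 400 bases with Mlx on the opposite strand, which had 227 counts against 120 for Psmc3ip, so these levels are uncertain. Psme3ip1, which binds PA28 gamma, averaged 30.4 ± 6.08, 29.2 ± 11.6 and 23.5 ± 7.50 in the same order of groups (SD, n = 3).

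The replicate error of these genes was widest in the cap assembly chaperones and in the genes matched by symbol alone. The median biological coefficient of variation, the spread between replicates beyond counting error that edgeR estimates per gene, was 27.1% over the 46 genes and 40.5% over all tested genes. The 46 genes and all tested genes were not matched for level. By class, the median was 24% for the alpha ring, 24.2% for the beta ring, 27.9% for the ATPases, 24.98% for the other cap subunits, 48.4% for the cap assembly chaperones, 38.7% for the core assembly chaperones and 48.8% for the 2 genes matched by symbol alone. The shared 3′ sequence adds an uncertainty of another kind: 17 of the 46 genes, among them Psma3, Psma4, Psma5, Psmb3 and Psmb5, had a stretch of at least 75 bases within their last 400 at 95% identity or more in another annotated transcript, and in 5 of the 17 that transcript's gene had counts here. For the rest of the 17 except Psmd1, the gene of a copy is not among the genes listed, so its counts are unknown. Psma1, Psma2, Psma6 and Psma7 of the alpha ring, and Psmd3, had no such copy. In all, 8 of the 46 overlap another gene with counts: Psma2 and Psme2b on the same strand, and Psmb7, Psmc3, Psmc3ip, Psmd13, Psme1 and Psme3ip1 on the opposite strand.

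Genes that work with the proteasome were counted from 6 lists. Of 10 tested subunits and factors named otherwise, 20 genes of the ubiquitin E2 family, 16 genes of the VCP complex and shuttle factors, 6 ubiquitin genes and E1 enzymes and 3 immunoproteasome subunits, none rose or fell past an adjusted p of 0.05 in edgeR in any comparison. Of all tested genes, 0.289% passed for age, 0.944% for restriction and 1.94% for aged restricted against young ad libitum mice. Pomp, the chaperone that joins the core rings, had 161, 158 and 219.7 TMM-scaled CPM in aged restricted, 260.4, 199.8 and 259 in aged ad libitum, and 329, 286 and 219 in young ad libitum libraries, and the restricted and young groups overlapped narrowly. Ubb, which encodes ubiquitin, had 744, 639.8 and 663 TMM-scaled CPM in aged restricted, 502, 560.5 and 486 in aged ad libitum, and 446, 412 and 537 in young ad libitum libraries. The aged restricted libraries were the highest 3, at a log2 fold change of 0.55 ± 0.18 over young ad libitum mice (SE; edgeR quasi-likelihood adjusted p = 0.128). All 6 ubiquitin and E1 genes had a higher fitted level with restriction (median 0.36), with adjusted p of at least 0.361.

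Of the 9 tested genes in the remaining list, named for NFE2L1 activation, 1 rose. It did so in aged restricted against young ad libitum mice, where 1.94% of all tested genes passed. Nfe2l1 and Nfe2l2 encode related transcription factors, of which Nfe2l1 is known to raise proteasome genes when the proteasome is blocked and Nfe2l2 to drive genes of the oxidative stress response. Nfe2l2 had 119.6, 166 and 104 TMM-scaled CPM in aged restricted, 125, 79.1 and 129 in aged ad libitum, and 26.5, 43.5 and 76.1 in young ad libitum libraries. All 6 aged libraries lay above all 3 young ones, and the rise passed the threshold in aged restricted against young ad libitum mice (log2 fold change 1.42 ± 0.34, SE; edgeR quasi-likelihood adjusted p = 0.0217), with 1.20 ± 0.34 and an adjusted p of 0.135 for aged ad libitum against young ad libitum mice. The call was lost without young ad libitum replicate 1 (adjusted p = 0.15) or 2 (0.12) or aged restricted replicate 2 (0.0764), and held in the other 15 settings. The keratinocyte, muscle, red blood cell and neutrophil markers given beside Psmd3 were likewise higher in all 6 aged than in all 3 young libraries, and their part in the Nfe2l2 rise was not tested. Nfe2l1 averaged 105 ± 21.6 TMM-scaled CPM in aged restricted, 114 ± 32.2 in aged ad libitum and 113 ± 7.49 in young ad libitum libraries (SD, n = 3).

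The element these factors are known to bind was looked for in RefSeq promoters of GRCm38.p6, from 250 bases before to 50 after each start, on both strands, for the 39 of 46 genes found there, which have 43 promoters. The narrow form TGACNNNGC stood in 6 of the 43 (13.95%), against 12.4% of all 32851 promoters. The wide form TGANNNNGC, which includes the narrow one, stood in 24 (55.8%), against 41.3%, and the CCAAT box in 14 (32.6%), against 37.4%. The matches to the narrow form before the start are shown with up to 20 bases on each side, read 5′ to 3′ along the gene's strand, because Psmb5 and Psmb6 hold cutting sites and Psmc6, Psmd12 and Psmd9 belong to the cap or its assembly; capitals mark the match, on either strand. They lie at chr14:54618014-54618062 (minus strand) for Psmb5, chr11:70525328-70525356 (plus) for Psmb6, chr14:45329577-45329625 (plus) for Psmc6, chr11:107479278-107479309 (plus) for Psmd12 and chr5:123228139-123228187 (plus) for Psmd9.
Psmb5: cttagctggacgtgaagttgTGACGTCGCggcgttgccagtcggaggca
Psmb6: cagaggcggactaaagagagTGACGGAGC
Psmc6: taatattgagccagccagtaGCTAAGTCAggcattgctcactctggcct
Psmd12: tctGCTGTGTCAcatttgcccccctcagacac
Psmd9: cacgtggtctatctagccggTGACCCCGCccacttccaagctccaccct
A match is a description of the letters, not evidence of binding. In aged restricted against young ad libitum mice, log2 fold changes of the 5 genes shown were -0.64 for Psmb5, -0.07 for Psmb6, -0.33 for Psmc6, -0.49 for Psmd12 and -0.72 for Psmd9. The other gene with the narrow form, Psme4, whose match runs past the start, had 0.24. None of these passed the threshold, and 26 of all 46 genes had a lower fitted level in this comparison. For restriction, Psmb6 and Psmc6 had a higher fitted level (0.50 and 0.42), and Psmb5, Psmd12, Psmd9 and Psme4 a lower one.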

How the data were processed

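Per the labels, libraries were made with the QuantSeq 3′ mRNA-Seq V2 FWD kit and sequenced as 75 bp single reads on a NextSeq 500. The authors deposited a table of whole-number read counts per gene, and the submitters' processing notes name the build GRCm38 (mm10) and, as tools, featureCounts, STAR and Trim Galore. Versions and the use of strand, of multiply matching reads and of molecular identifiers are not given in the sources used here. The table's own coordinates were not used.

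From the deposited counts, the 9 libraries were fitted in 1 model of 3 groups with 6 residual degrees of freedom in R 4.3.3 with edgeR 4.0.16: filterByExpr by group (minimum count 10), TMM factors, robust quasi-likelihood F-tests and Benjamini-Hochberg adjustment over 9009 genes per comparison, threshold 0.05. DESeq2 1.42.0 was an alternative. Any p-value covers the spread between these libraries. On simulated counts the fit recovered 61.3%, 55.6% and 59.5% of 4-fold changes for age, for restriction and for aged restricted against young mice, among 8489, 8522 and 8509 genes. The fitted log2 fold changes of the 46 genes, from -1.37 to 1.10, were all smaller than that. The changed genes were drawn from all tested genes with their own spread. Recovery among the 46 genes, or of changes of their size, was not simulated. Library pairs of a group differed by more than sampling noise, and none was merged. Between groups, deviations from the group means correlated at -0.028 to 0.077 for libraries with the same replicate number. For different numbers the correlations were -0.077 to 0.047. Among replicates 1 and 2, every same-number correlation was positive and every correlation of a 1 with a 2 was negative. The numbers were not used as pairs in the main fit, and a block by replicate number was one of the other settings. The genes, classes and lists were chosen with earlier results of these data known, and no test over a list was made. Genes were named where they passed the threshold, were among the 10 smallest p-values or the 2 smallest of their class, or held a fixed role (cutting sites, deubiquitinase, ubiquitin receptors, activators, inhibitor). Of the lists of other genes, the ones that passed and some of those with the smallest p-values were named. Copies were searched with BLAST in GENCODE M21 transcripts.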

Additional observations from a re-analysis of the deposited data

How the results depend on the processing

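Each result was recomputed under 9 other settings and without each library in turn. The number of all genes called for age, 26, became 91 in DESeq2, 126 with no filter on low counts, 58 in a fit of only those groups and 49 with a replicate block, and ran from 2 (without young ad libitum replicate 2) to 91 (without aged restricted replicate 2) when a library was left out. For restriction it was 85, and became 159 in DESeq2, 50 with library totals, 224 with no filter, 43 in a fit of only those groups and 133 with the replicate block, and ran from 35 (without aged ad libitum replicate 2) to 157 (without aged restricted replicate 2). For aged restricted against young ad libitum mice it was 175, and became 286 with no filter, and ran from 98 (without young ad libitum replicate 2) to 242 (without aged restricted replicate 2). The count of proteasome genes called stayed at 0 for age and for restriction in every setting, and was 0 or 1 for aged restricted against young ad libitum mice (0 with DESeq2's size factors within edgeR, with library totals and without robust estimation). The cause of these changes was not tested. The replicate numbers were not used as pairs in the main fit, and the block changed no proteasome gene's call. The restriction median of the 46 genes ran from -0.00119 (without aged restricted replicate 2) to 0.15 (without aged ad libitum replicate 3). Of the 7 alpha ring genes, 6 instead of 7 were higher with restriction without aged ad libitum replicate 2, and 6 instead of 7 were lower with age without young ad libitum replicate 1 or 2 or aged ad libitum replicate 1. The summed level without mitochondrially encoded genes averaged 7316, 7001 and 7537 CPM in aged restricted, aged ad libitum and young ad libitum libraries. Some fitted changes that passed no threshold changed sign: Psme3ip1 for restriction with library totals (-0.00412) and Psmd2 for aged restricted against young ad libitum mice in a fit of only those groups (-0.000673). With a library left out, log2 fold changes of aged restricted against young ad libitum mice ran across 0 for Psma5 (-0.11 to 0.22), Psmb2 (-0.72 to 0.12), Psmb6 (-0.33 to 0.16), Psmb9 (-0.10 to 0.19), Psmc3 (-0.23 to 0.12), Psmd2 (-0.14 to 0.20) and Psme1 (-0.0689 to 0.25). For restriction they did so for Psmb7 (-0.23 to 0.21), Psmd14 (-0.0567 to 0.64), Psmd2 (-0.25 to 0.00684), Psmd9 (-0.74 to 0.0355), Psme2 (-0.0820 to 0.36), Psme3 (-0.0938 to 0.33), Psme3ip1 (-0.18 to 0.41) and Psmg1 (-0.00917 to 1.05), and for age for Psmc3ip (-1.31 to 0.31), Psmd4 (-0.18 to 0.0319), Psmd9 (-0.76 to 0.00559), Psme3ip1 (-0.0593 to 0.54) and Psmg1 (-0.29 to 0.75). How depth limits the genes with few counts, such as the assembly chaperones, was not tested.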
